A study of Mus musculus with 2 samples.

Results

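The replication-dependent histone genes are the clustered genes that supply the linker histone H1 and the core histones H2A, H2B, H3 and H4 while DNA is copied. They were taken here as all genes whose symbol begins with Hist1h, Hist2h, Hist3h or Hist4h and that had at least 50 UMIs (unique molecular identifiers, each standing for an RNA molecule that was captured) over both libraries. Of 67 such symbols among 30905 listed genes, 62 passed: 5 H1, 16 H2A, 16 H2B, 12 H3 and 13 H4 genes. Just inside the threshold lay Hist2h2ab with 61 UMIs, Hist2h3c2 with 66 and Hist1h3h with 72. Just outside lay Hist1h1t, the testis H1 gene, with 26 UMIs. The other 4 symbols, Hist1h2bq, Hist2h2aa2, Hist1h2ba and Hist1h2aa, had 0 UMIs.

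Histone H1 binds the linker DNA between nucleosomes, and the core histones form the nucleosome itself. The replication-dependent genes are copied in S phase, mostly carry no introns, and their mRNAs end in a conserved stem-loop in place of a poly(A) tail. The stem-loop is bound by SLBP, which supports processing, translation and the decay of these mRNAs when DNA synthesis stops. Germinal center B cells divide rapidly, chiefly in the dark zone, which is marked by the chemokine receptor Cxcr4, and are selected in the light zone, where they carry Cd83 and Cd86.

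The data are 2 droplet single-cell libraries, called library 1 and library 2 after their titles, of germinal center B cells sorted from spleens of 8-week-old C57BL/6J mice immunized with SRBC (the usual abbreviation of sheep red blood cells). Both libraries belong to 1 group, with no untreated or naive group, and were made with the 3′ kit, version 3. Comparisons were therefore made between classes of barcodes within the libraries and between the libraries. Whether separate animals lie behind the libraries is not in the labels. The p-values therefore cannot be read as spread between animals. The level difference between libraries was taken out as a block, and the remaining variance of a gene was largely shared across genes. That variance may be technical, so very small p-values do not rest on the spread of these libraries alone.

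The barcodes analysed had 500 or more genes, 1000 or more UMIs and a mitochondrial share of up to 20%. They numbered 5142 in library 1 and 3526 in library 2, with median depths of 8183.5 and 8243 UMIs. The median mitochondrial share was 13.5% in each library. Only 9 barcode sequences were shared between the kept sets. The germinal center B cell markers Bcl6 and Fas were detected in over 5% of barcodes of each library, and the B cell gene Cd79a in 99.3% and 99.2%. Of the T cell, macrophage and erythroid lists 1 gene each passed 5%: Lck (36.5% and 37.6%), Cd68 (5.50% and 6.35%) and Hbb-bt (19.2% and 21.0%). Of the neutrophil, NK and platelet lists none did. Of 7 plasma cell markers 4 passed, with Jchain in 84.4% and 83.9% of barcodes, and of 7 resting B cell markers 6 did, with Foxp1 in 77.6% and 75.1%. The summed macrophage markers were 14.7 CPM (UMIs of a gene or list in 1000000 UMIs of all genes) in library 1 and 7.83 in library 2. For classes and shares of barcodes, each barcode was thinned to 3400 UMIs, which left out 465 shallower barcodes of library 1 and 391 of library 2.

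The stem-loop carries the feature that sets these mRNAs apart in an assay primed on poly(A), so its variants are shown first. A 16-letter stem-loop was found in an annotated coding transcript of 44 of the 62 genes (GENCODE M21, mm10). Capitals mark the paired stem and lower case the loop.

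stem-loop of 25 H1, H2A, H2B and H3 genes: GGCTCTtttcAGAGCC
stem-loop of 7 H4 genes: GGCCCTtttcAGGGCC
stem-loop of 5 H2B and H3 genes: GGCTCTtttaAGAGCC
stem-loop of Hist1h4i and Hist2h4: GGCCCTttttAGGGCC
stem-loop of Hist1h4b and Hist1h4j: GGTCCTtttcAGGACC

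The most common form, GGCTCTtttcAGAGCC, served 4 of the 5 histone types, while the H4 genes among the lines had other stems. The other 3 forms, in Hist1h4a, Hist1h3g and Hist2h2ac, were each found in 1 gene. In 22 genes the longest annotated transcript with the stem-loop ran 100 or more bases past it, in 22 it ended sooner, and in 18 no stem-loop letters were found. Hist1h2ap ended 3 bases after its stem-loop, Hist1h4i 330 bases and Hist1h2ac 2010 bases. For Hist1h1b and Hist1h1a no stem-loop was found in the annotated transcript, so nothing follows about their true ends.

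These genes lie in dense clusters: 50 on chromosome 13, 9 on chromosome 3, 2 on chromosome 11 and 1 on chromosome 6. Many copies are near identical, which limits how tags can be assigned. Of the last 300 bases of the transcript, 21 genes had only 90-base stretches found in no other gene's transcripts, and 8 had none. Hist1h2ap and Hist1h3e are among those with none, so their levels are uncertain. Hist1h1e also had none, because its exon overlaps Hist1h2be and Gm11398 on the same strand. Both Hist1h2bq and Hist2h2aa2, listed at 0 UMIs, are near copies of other members. In all, 7 members overlap an exon of another gene on the same strand, including Hist3h2a with Trim17 and Hist1h2ac with Gm24991.

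RefSeq promoter windows (GRCm38.p6, 250 bases before to 50 after the start) were matched for 56 members. The letters CCAAT, on either strand, were in 47 of them (83.9%), against 37.4% of 32851 windows of the same length. The letters TATAAA were in 33 (58.9%, against 13.6%), and the octamer ATTTGCAT in 11 (19.6%, against 1.74%). CCAAT was in every matched H1, H2A, H2B and H3 window but in only 3 of 12 H4 windows. The octamer was found in 6 H2A and 5 H2B windows and in none of the H1, H3 or H4 windows. Each motif was counted on its own, so matches to different motifs may overlap, and the counts describe letters and not bound sites. In 10 pairs of H2A and H2B genes read away from each other, the starts lie 176 to 302 bases apart. Their windows can cover the same bases, so the same site can count for both genes. For 1 abundant gene of each type the 150 bases before the start are shown, with the letters of these motifs in capitals on either strand.

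Hist1h1b, chr13:21780626-21780775, minus strand: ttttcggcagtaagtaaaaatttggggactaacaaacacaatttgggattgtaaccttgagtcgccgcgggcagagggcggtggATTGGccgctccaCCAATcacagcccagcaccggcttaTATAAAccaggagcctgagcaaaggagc
Hist1h2ae, chr13:23571221-23571370, minus strand: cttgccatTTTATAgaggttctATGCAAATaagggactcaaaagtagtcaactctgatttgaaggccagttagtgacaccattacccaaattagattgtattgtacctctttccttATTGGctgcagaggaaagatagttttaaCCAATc
Hist1h2bj, chr13:22043048-22043197, plus strand: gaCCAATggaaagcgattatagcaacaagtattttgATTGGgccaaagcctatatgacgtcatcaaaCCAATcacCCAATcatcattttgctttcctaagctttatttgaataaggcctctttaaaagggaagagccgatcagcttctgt
Hist1h3e, chr13:23562386-23562535, minus strand: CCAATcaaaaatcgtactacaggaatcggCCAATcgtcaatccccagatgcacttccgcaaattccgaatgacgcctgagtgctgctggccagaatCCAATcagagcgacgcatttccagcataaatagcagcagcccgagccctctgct
Hist1h4i, chr13:22041363-22041512, minus strand: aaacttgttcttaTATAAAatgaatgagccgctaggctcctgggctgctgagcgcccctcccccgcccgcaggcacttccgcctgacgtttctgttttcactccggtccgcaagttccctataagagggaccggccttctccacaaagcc

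The Hist1h1b window holds CCAAT on both strands close to a TATAAA, and the Hist1h2ae window holds an octamer. The Hist1h4i window holds a TATAAA and no CCAAT.

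Histone mRNA made up 118916 UMIs or 2018 CPM in library 1 and 55887 UMIs or 1355 CPM in library 2. A 3′ library counts a tag per captured molecule whatever the length of the transcript, so levels of different genes were set side by side without a length correction. They measure captured molecules, and capture may differ between ends with and without a poly(A) tail. After thinning, 81.0% of barcodes in library 1 (95% Clopper-Pearson interval 79.8% to 82.1%) and 77.0% in library 2 (75.5% to 78.5%) had at least 1 histone UMI. Without thinning the shares were 91.8% and 89.9%. The intervals cover counting error only. The mRNA was unevenly spread: the richest 10% of barcodes held 38.0% and 39.0% of the histone UMIs, with a median of 2 per thinned barcode and a maximum of 49 and 39.

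H1 was the type with the most UMIs, 41.6% of the total from only 5 genes. Hist1h1b, a linker histone gene, gave 357 CPM in library 1 and 349 CPM in library 2 and by itself 20.3% of all histone UMIs. It was detected in 37.2% and 36.5% of thinned barcodes. Hist1h1e followed with 208 and 183 CPM and Hist1h1c with 80.9 and 71.8 CPM. These H1 levels in the 2 libraries lay close together.

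H2A gave 32.6% of the UMIs, led by Hist1h2ap with 358 CPM in library 1 and 98.6 CPM in library 2. Next came Hist1h2ae with 149 and 64.0 CPM and Hist1h2ac with 71.1 and 56.4 CPM. In library 1 Hist1h2ap and Hist1h1b could not be told apart by their counting intervals, while in library 2 Hist1h2ap lay far below Hist1h1b. H2B gave 10.4%, with Hist1h2bj at 43.7 and 21.0 CPM, Hist1h2be at 25.5 and 18.1 CPM and Hist1h2bc at 21.4 and 17.8 CPM.

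The H3 and H4 genes, which form the core tetramer of the nucleosome, gave 6.55% and 8.89% of the UMIs. Hist1h3e led H3 with 36.8 and 19.7 CPM, before Hist1h3c with 27.6 and 16.9 CPM and Hist1h3d with 12.9 and 11.4 CPM. Hist1h4i led H4 with 57.0 CPM in library 1 and 56.9 CPM in library 2, before Hist1h4d with 54.2 and 36.9 CPM. Hist1h4h reached 17.4 and 7.54 CPM. The member with the fewest UMIs was Hist2h2ab at 0.78 and 0.36 CPM.

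**Figure D1:**
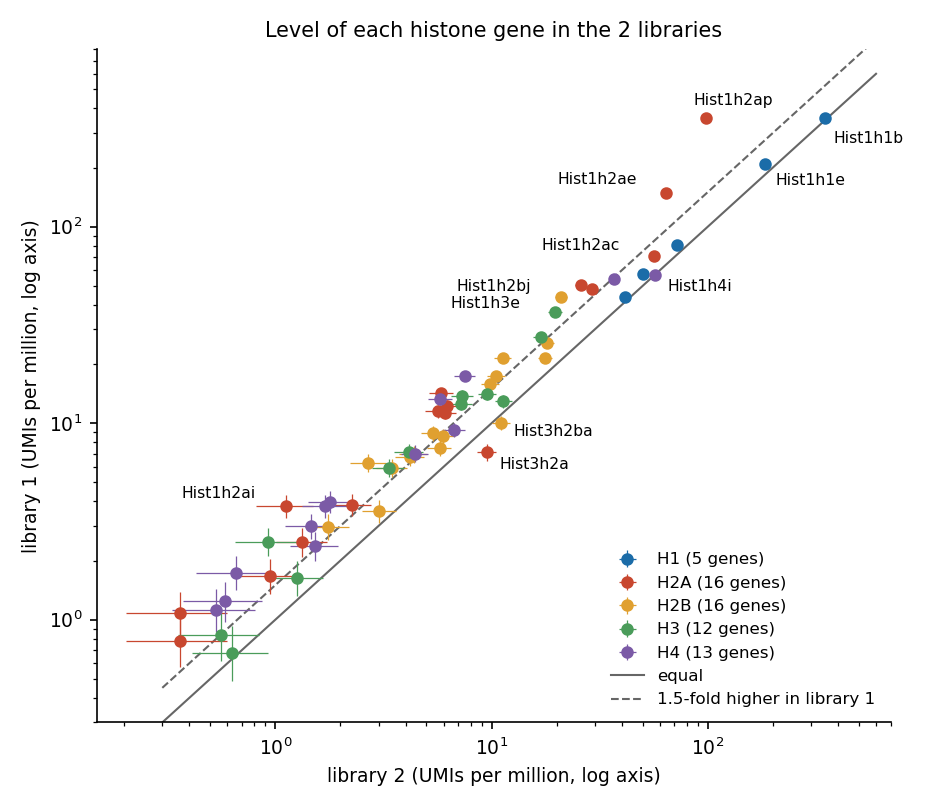
Level of each of the 62 histone genes in library 2 (x axis) and library 1 (y axis), in CPM on log axes, coloured by type. Bars are 95% Poisson counting intervals. H1 genes lie by the line of equality, and most other genes lie above it.

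Between the libraries, H2A, H2B, H3 and H4 mRNA was higher in library 1 and H1 mRNA was nearly level. With 1 library on each side there is no test, so the ratios carry only counting intervals and a fold past 1.5 was used to count genes. Summed H2A was 747 CPM in library 1 and 314 CPM in library 2, a ratio of 2.38. Summed H2B was 212 and 136 CPM, H3 136 and 82.8 CPM, and H4 175 and 126 CPM. Summed H1 was 747 and 696 CPM, a ratio of 1.07 (counting interval 1.06 to 1.09). H1 and H2A were thus level with each other in library 1, while in library 2 H1 lay far above H2A.

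By gene, 41 of the 62 were more than 1.5-fold higher in library 1, where 2.48% of the 11248 genes with at least 50 UMIs were. None of the 62 was more than 1.5-fold lower, where 1.17% of genes were. The median ratio was 1.70 for the histone genes and 0.978 for all genes. Past 1.5-fold were 0 of 5 H1, 14 of 16 H2A, 10 of 16 H2B, 7 of 12 H3 and 10 of 13 H4 genes. Hist1h2ap had a ratio of 3.64 (counting interval 3.52 to 3.76) and Hist1h2ai one of 3.38 (2.45 to 4.75). The interval of the Hist1h4i ratio ran from 0.95 to 1.06, and Hist3h2a, at 7.11 and 9.48 CPM, was the only member whose ratio lay under 1 with an interval that excluded 1 (0.75, 0.65 to 0.86).

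The library difference was not spread evenly over annotated ends. Of 22 genes whose transcript ended under 100 bases after the stem-loop, 21 lay past 1.5-fold, with a median ratio of 1.76. Of 22 genes that ended 100 or more bases after it, 7 did, with a median ratio of 1.35. The 18 genes with no stem-loop match had a median of 1.85, and 13 lay past 1.5-fold. The ends with short and long reach also differed in how alike their copies are: the median share of unique 90-base stretches was 43.8% and 100%. These properties and the histone type cannot be told apart here, and their part in the library difference was not tested.

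**Figure D2:**
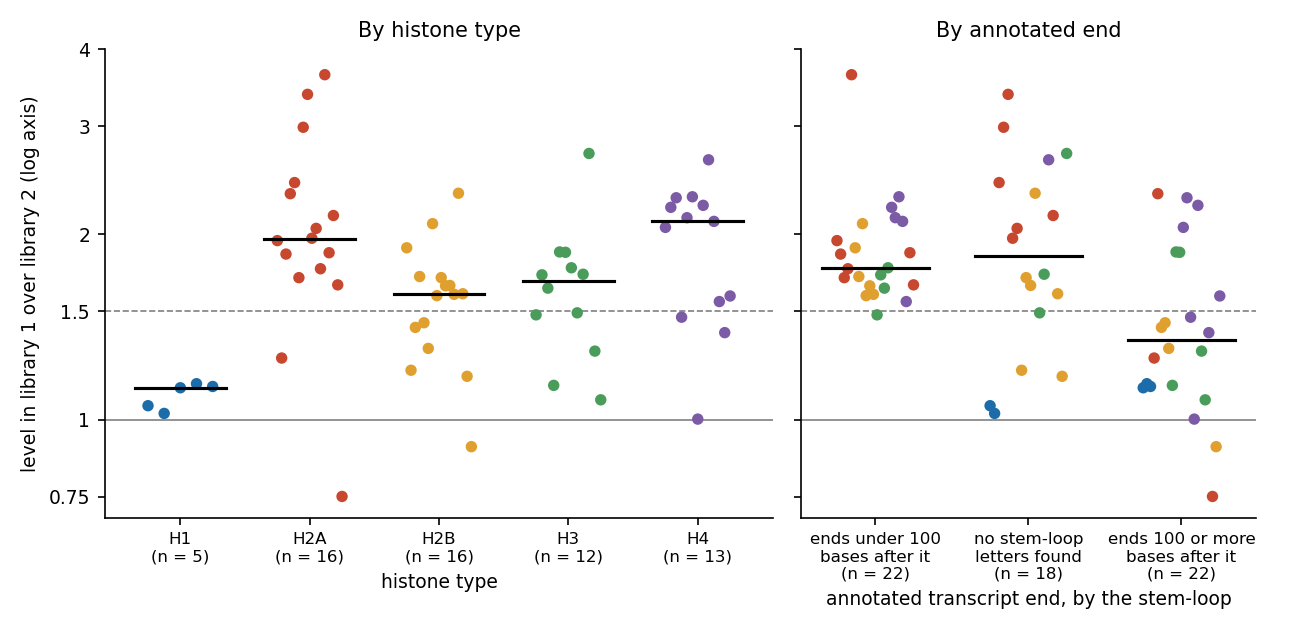
Level in library 1 over library 2 for each of the 62 genes on a log axis, by histone type (left) and by where the annotated transcript ends against its stem-loop (right). Points are genes coloured by type as in the left panel, thick lines are medians, the solid line is 1 and the dashed line 1.5. All 5 H1 genes lie under 1.5, and 21 of 22 genes with short ends lie above it.

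Other measures of the cycle were alike in the libraries: a list of 42 S phase genes summed to 4882 and 5157 CPM, and a list of 52 G2/M genes to 12155 and 12410 CPM. Among barcodes high in S phase genes (defined in the next paragraph), 42 members had at least 50 UMIs, of which 26 were past 1.5-fold higher in library 1 and 2 lower, where 2.05% and 1.82% of genes were. Among those high in G2/M genes, 25 of 50 such members were higher and 0 lower, where 1.78% and 1.46% of genes were. In barcodes low in both lists, 3 of 15 such members were higher and 0 lower (3.08% and 3.06% of genes). Summed H2A had a ratio of 1.53 in those barcodes (counting interval 1.28 to 1.84). It was 2.85 in barcodes high in S phase genes and 2.31 in those high in G2/M genes. With a mitochondrial limit of 10%, 37 of 55 such members were higher (2.76% of genes), and with 40%, 30 of 62 (1.88% of genes). Summed H2A had a ratio of 2.48 among barcodes with at most 10% mitochondrial UMIs and 2.25 among those with 10% to 20%. With barcodes split by depth into 3 equal classes, the H2A ratio was 1.93 in the shallowest, 2.10 in the middle and 2.57 in the deepest class. Macrophage genes also led the list of genes higher in library 1: Fcna, Slc40a1 and Csf1r had ratios of 49.0, 26.6 and 9.10, on 71, 78 and 56 UMIs over both libraries. The part of those cells in the histone difference was not tested.

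Barcodes were put in cycle classes by their thinned UMIs of the S phase and G2/M lists, which hold no histone gene of the 62. S-high barcodes lay above the 67th percentile of the S list and at or under the median of the G2/M list, G2/M-high barcodes the reverse, and low-cycling barcodes at or under the 33rd percentile of both. These are ranges of a score and not cell types: 37.4% and 35.9% of thinned barcodes lay within 1 UMI of a boundary. S-high barcodes numbered 725 and 486, G2/M-high 922 and 624, and low-cycling 858 and 506. The median thinned UMIs of the S list were 26 and 27 in S-high, 8 and 8 in G2/M-high and 4 and 4 in low-cycling barcodes. Those of the G2/M list were 24 and 24, 72 and 71.5, and 8 and 7. Median depth was 10136 and 10341 UMIs in S-high, 10781 and 9566 in G2/M-high and 5298 and 5425 in low-cycling barcodes.

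Histone mRNA rose from low-cycling to S-high and again to G2/M-high barcodes in all 5 types. The members summed to 352 CPM in library 1 and 273 CPM in library 2 among low-cycling barcodes. They summed to 1434 and 913 CPM among S-high barcodes, and to 2543 and 1670 CPM among G2/M-high barcodes. The classes did not overlap, and each step was in the same direction in both libraries. The mean log2 step was 1.88 ± 0.20 (SD, n = 2) from low-cycling to S-high and 0.85 ± 0.03 from S-high to G2/M-high. The remaining barcodes, in none of these classes, held 2343 and 1549 CPM. They include barcodes high in the S list whose G2/M list lay above the median. Scanpy scores from the same lists put 1027 and 755 of the remaining barcodes in S phase, against 721 and 486 of the S-high barcodes. The steps are thus between these classes and not between whole phases of the cycle.

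**Figure D3:**
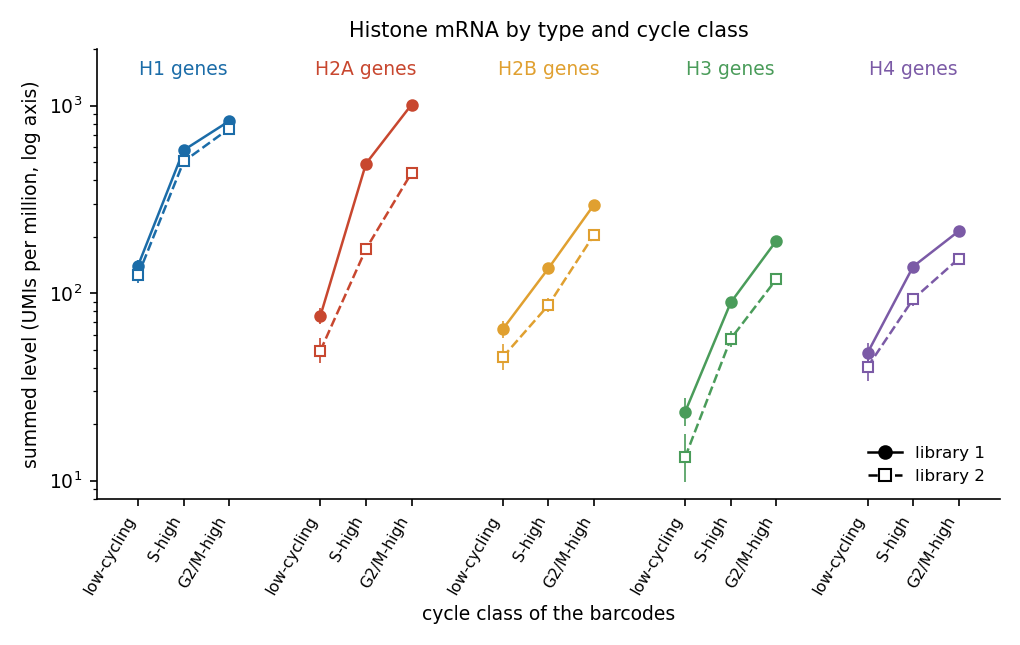
Summed level of each histone type (CPM, log axis) in low-cycling, S-high and G2/M-high barcodes, for library 1 (filled circles, solid lines) and library 2 (open squares, dashed lines). Bars are 95% Poisson counting intervals. Every line climbs at both steps, and the H2A lines of the libraries lie farthest apart.

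Against low-cycling barcodes, 37 of 45 testable members were higher in S-high barcodes and 1 was lower (edgeR quasi-likelihood test, adjusted p under 0.05), where 29% of genes were higher and 28.1% lower. The filter on low counts removed the other members. Without the filter, 44 of all 62 were higher and 1 lower, where 21% and 17.7% of genes were. DESeq2 called 25 higher and 0 lower, where it called 15.5% and 8.91% of genes. The median log2 fold change over the 45 was 1.96, against -0.03 over all genes. By type, 5 of 5 H1, 9 of 10 H2A, 11 of 15 H2B, 7 of 8 H3 and 5 of 7 H4 members rose.

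The H1 genes differed among themselves in this step. Hist1h1b gave 308 CPM in library 1 and 261 CPM in library 2 among S-high barcodes and 14.2 and 13.7 CPM among low-cycling barcodes. The classes did not overlap, and its log2 fold change was 4.43 (SE 0.09, edgeR adjusted p = 3.55e-13). Hist1h1a, at 38.5 and 36.6 CPM against 1.79 and 1.45 CPM, changed by a log2 of 4.55 (SE 0.20, edgeR adjusted p = 3.55e-10). Hist1h1e rose far less, from 67.9 and 66.8 CPM to 136 and 123 CPM (log2 1.01). Hist1h1c rose least of the H1 genes, from 46.8 and 34.6 CPM to 53.0 and 45.6 CPM (log2 0.32, SE 0.10, edgeR adjusted p = 0.00981), and its classes overlapped between libraries.

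Among core histones, Hist1h2ap rose from 17.0 and 3.78 CPM in low-cycling barcodes to 254 and 58.6 CPM in S-high barcodes (log2 3.98, SE 0.10, edgeR adjusted p = 1.80e-12). Hist1h4i rose from 14.3 and 14.5 CPM to 54.7 and 49.8 CPM (log2 1.93). The largest fitted changes were those of Hist1h3b, Hist1h2af and Hist1h3c, at log2 5.06, 4.85 and 4.77, which rest on 1, 2 and 5 UMIs in low-cycling barcodes. From the pooled UMIs, the Hist1h3b ratio was 37.3 with a counting interval from 6.46 to 1493, the Hist1h2af ratio 29.3 (7.92 to 245) and the Hist1h3c ratio 26.8 (11.3 to 83.4). Hist3h2a, which overlaps Trim17 on its strand, was the lone member that fell, from 8.42 and 10.5 CPM to 2.84 and 4.69 CPM (log2 -1.31, SE 0.25, edgeR adjusted p = 4.25e-04). Hist1h2ac, at 25.4 and 25.0 CPM against 34.5 and 25.9 CPM, changed by a log2 of only 0.36 (edgeR adjusted p = 0.0249).

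Low-cycling barcodes also held more macrophage marker mRNA, 82.6 and 23.8 CPM, than S-high barcodes, 7.60 and 5.60 CPM. T cell markers summed to 96.0 and 128 against 55.3 and 62.5 CPM, and the 7 resting B cell markers to 890 and 1023 against 399.7 and 413 CPM. A setting left out barcodes with 3 or more UMIs of macrophage, neutrophil, T cell and erythroid markers, not counting Lck, Cd68 and Hbb-bt. With the percentile cuts drawn anew after that removal, it had 853 and 503 low-cycling barcodes. It called 39 members, among them all 38 called with every barcode. Resting B cells were not covered by it, and beyond it the part of such cells in the histone difference was not tested.

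From S-high to G2/M-high barcodes, 46 of 58 testable members rose and 1 fell (edgeR adjusted p under 0.05), where 26.6% of genes were higher and 28.7% lower. All 16 H2B members rose, as did 12 of 15 H2A, 9 of 10 H3, 5 of 12 H4 and 4 of 5 H1 members. The median log2 fold change over the 58 was 0.98, against -0.0004 over all genes. DESeq2 called 30 higher and 0 lower, where it called 10.5% and 13.4% of genes. Without the filter on low counts, 47 of all 62 rose and 1 fell, where 17.9% and 18.1% of genes did.

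The linker histone genes again behaved unlike each other. Hist1h1a fell, from 38.5 and 36.6 CPM among S-high barcodes to 31.2 and 31.7 CPM among G2/M-high barcodes (log2 -0.30, SE 0.09, edgeR adjusted p = 0.00288). The call is lost without the replicate block, by DESeq2 (adjusted p = 0.312), with thinned sums, with a mitochondrial limit of 40%, without the 6% deepest barcodes and with scanpy phases, where the value was -0.04. Hist1h1b rose little, from 308 and 261 CPM to 379 and 331 CPM (log2 0.29, SE 0.04, edgeR adjusted p = 7.00e-10). Neither gene's classes overlapped. With a mitochondrial limit of 10% the Hist1h1b value was -0.14 and that of Hist1h4i -0.11. Hist1h1e rose from 136 and 123 CPM to 250 and 230 CPM (log2 0.85).

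Hist1h2ac and Hist3h2a, which had risen little or fallen from low-cycling to S-high barcodes, were among those that rose most here. Hist1h2ac rose from 34.5 and 25.9 CPM to 120 and 97.6 CPM (log2 1.81, SE 0.08, edgeR adjusted p = 6.80e-118). Hist3h2a rose from 2.84 and 4.69 CPM to 10.7 and 15.2 CPM (log2 1.76, SE 0.20, edgeR adjusted p = 2.20e-18). The classes of both genes lay apart in both libraries. Each shares exon bases with another gene on its strand, while all 90-base stretches of its last 300 bases were found in no other gene's transcripts.

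Hist1h2ai, at 1.62 and 0.606 CPM among S-high barcodes, reached 5.97 and 2.28 CPM (log2 1.85, SE 0.35, edgeR adjusted p = 4.63e-07). Hist1h2bf, an H2B gene, rose from 2.94 and 0.908 CPM to 8.20 and 5.69 CPM (log2 1.73, SE 0.26, edgeR adjusted p = 1.29e-10). Hist1h2ap rose from 254 and 58.6 CPM to 459 and 126 CPM (log2 0.90): it rose within each library, but the levels of the classes overlapped between libraries. Hist1h4i was at 54.7 and 49.8 CPM and at 60.6 and 59.7 CPM, a log2 difference of 0.16 that did not pass (edgeR adjusted p = 0.056).

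**Figure D4:**
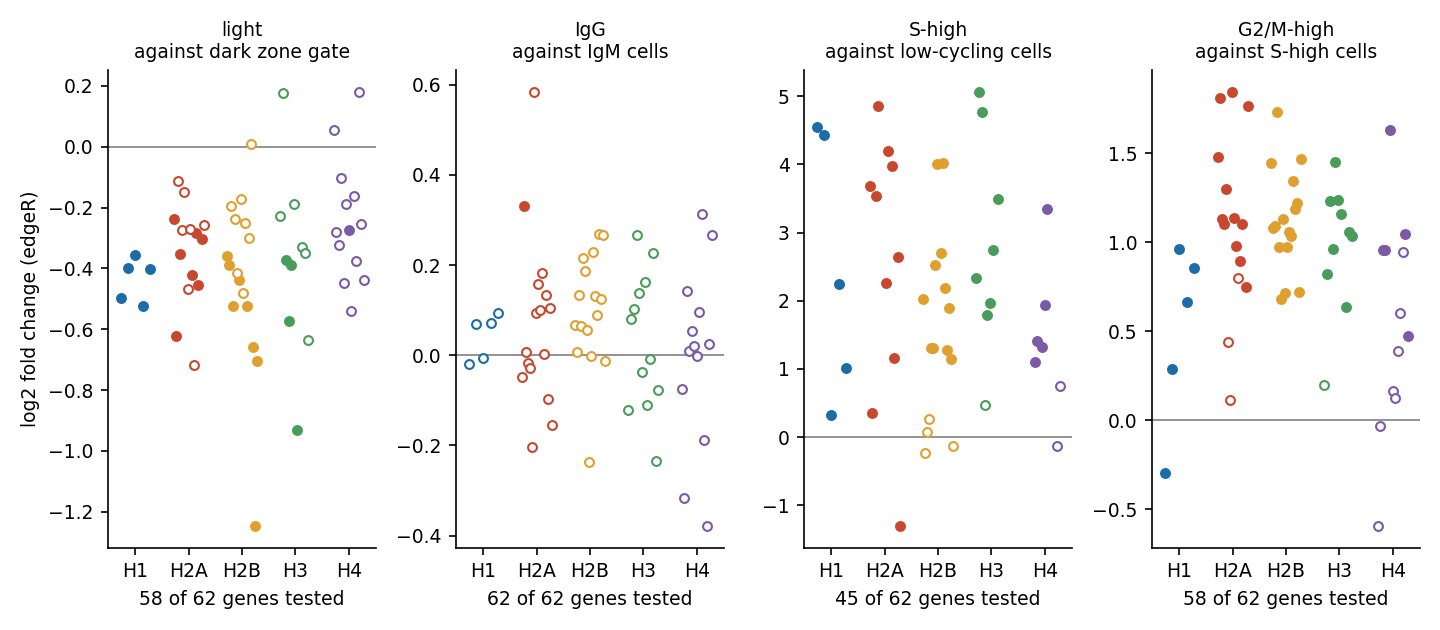
Fitted log2 fold change (edgeR, y axis) of the testable members by histone type (x axis), with a panel for each comparison. The panels are light against dark zone gate, IgG against IgM, S-high against low-cycling and G2/M-high against S-high. Zone gates and isotype classes are defined below. Points are genes coloured by type, filled where called and open where not. The 2 cycle comparisons share the S-high barcodes, so their values are not independent. Most members lie above 0 in both cycle panels and below 0 in the zone panel.

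Genes that handle histone mRNA and histone proteins were described from 3 lists, leaving out genes that define the classes. Of 14 testable genes for histone transcription and mRNA processing, 12 rose from low-cycling to S-high barcodes and 0 fell, where 29% of all genes rose and 28.1% fell. Eri1, a nuclease that trims histone mRNA ends, rose by a log2 of 1.22, and Lsm11, a part of the U7 snRNP that cuts them, by 1.05. Of 18 histone chaperone genes, 16 rose and 1 fell, led by Asf1b (log2 3.45) and Chaf1a (3.23), which deliver H3 and H4 to new DNA. Of 9 genes listed here as replication-independent variants, a label that was not tested, 5 rose and 1 fell, and H2afz changed most (log2 2.25).

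From S-high to G2/M-high barcodes, where the histone genes mostly rose, 16 of the 18 chaperone genes fell and 1 rose, where 28.7% of all genes fell and 26.6% rose. Chaf1a fell by 1.64 and Tonsl by 1.48 on the log2 scale. Of 15 mRNA factors 4 rose and 5 fell, shares near those of all genes. Zfp473, a zinc finger protein of the U7 machinery, rose by a log2 of 1.35, and Npat, the transcriptional coactivator of histone genes, fell by 0.93 on the log2 scale. Of 9 variant genes 7 rose and 0 fell, led by H2afx (log2 2.37). Slbp, the stem-loop binding protein, belongs to the S phase list that defines the classes, so its values are no finding.

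Across barcodes, the genes whose thinned level was most like the summed histone level were also division genes. Pearson correlations of log2(UMI + 1) were 0.67 in library 1 (n = 4677 barcodes) and 0.63 in library 2 (n = 3135) for Top2a, a topoisomerase, and 0.57 and 0.52 for Mki67. Next came Tuba1b (0.56 and 0.51), Tubb5 (0.52 and 0.46), Pclaf (0.49 and 0.43), Kif11 (0.45 and 0.41) and Esco2 (0.43 and 0.40). Smc4, H2afx and Incenp closed the 10 highest, the last at 0.42 and 0.38. Barcodes of a library share its preparation, and each value is a description without a test. Between single members, correlations over 1891 pairs had a median of 0.04 and 0.02, which in counts this sparse is no finding.

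Light zone barcodes held less histone mRNA than dark zone barcodes in both libraries. Light zone barcodes were those where thinned UMIs held Cd83 or Cd86 but not Cxcr4, 1658 and 1202 in number, and dark zone barcodes the reverse, 775 and 498. A single UMI set the class of 828 and 561 light and of 577 and 396 dark zone barcodes. Histone mRNA summed to 1826 and 1178 CPM in light and to 2240 and 1627 CPM in dark zone barcodes. The light zone was lower within each library, by a mean log2 of -0.38 ± 0.12 (SD, n = 2), while the levels overlapped between libraries. H1 sums were 668 and 602 against 832 and 854 CPM, with no overlap, and H4 sums were 165 and 109 against 178 and 143 CPM.

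Of 58 testable members, 25 were lower in the light zone (edgeR adjusted p under 0.05), where 16% of genes were lower. None was higher, where 18.1% of genes were, and none was higher at an unadjusted p under 0.05 or by DESeq2. DESeq2 called 8 lower (4.48% of genes, with 6.16% higher). Without the replicate block edgeR called 2, and the share of all genes there is not given here. Without the filter on low counts, 25 of all 62 were lower and 0 higher, where 9.3% and 12% of genes were. The median log2 fold change was -0.35, against -0.002 for all genes. All 5 H1, 7 of 14 H2A, 8 of 16 H2B, 4 of 10 H3 and 1 of 13 H4 members fell.

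Hist2h2be, an H2B gene, gave 2.05 and 2.19 CPM in light and 4.83 and 5.19 CPM in dark zone barcodes (log2 -1.25, SE 0.26, edgeR adjusted p = 1.25e-05). Hist1h3g gave 3.99 and 2.80 against 7.53 and 5.36 CPM (log2 -0.93, SE 0.21, edgeR adjusted p = 8.53e-05). Neither overlapped between the gates. Hist3h2ba and Hist2h2bb, both H2B genes, fell by 0.70 and 0.66 on the log2 scale. Hist1h1b gave 317 and 300 against 384 and 428 CPM (log2 -0.40, SE 0.04, edgeR adjusted p = 9.48e-23), without overlap. Hist1h2ap gave 326 and 90.4 against 389 and 113 CPM (log2 -0.28), where the libraries lay farther apart than the zones. Hist1h4i, at 51.9 and 48.8 against 58.5 and 63.6 CPM, was the H4 gene that fell (log2 -0.27, edgeR adjusted p = 3.66e-04).

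The gates also differed in cycle classes. G2/M-high barcodes made up 14.8% and 14.6% of light and 27.2% and 26.3% of dark zone barcodes. Low-cycling barcodes made up 27.6% and 23.5% against 13.3% and 10.4%, and S-high barcodes 15.6% and 16.8% against 10.6% and 11.0%. Marker sums of other cell types differed between the gates too. Macrophage markers summed to 20.2 and 10.7 CPM in light and 5.84 and 5.19 CPM in dark zone barcodes. T cell markers, which include the widely detected Lck, summed to 81.2 and 86.1 against 39.1 and 43.2 CPM. Resting B cell markers, from the list of 7, summed to 488 and 507 against 424 and 425 CPM. Without barcodes with 3 or more UMIs of other-lineage markers (not counting Lck, Cd68 and Hbb-bt), 1653 and 1200 light and 774 and 497 dark zone barcodes remained. The zone test then called 25 members, the same 25 as with all barcodes. That setting did not cover resting B cells, and beyond it the part of such cells in the histone difference was not tested.

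Within S-high barcodes, 6 of 34 testable members were lower in the light zone (edgeR, 3.87% of genes). None was higher, also at an unadjusted p under 0.05 (4.93% of genes). The 6 were Hist1h1b, Hist1h1c, Hist1h1e, Hist1h2ak, Hist1h2ap and Hist1h3a. Hist1h1b gave 246 and 218 CPM in light against 373 and 417 CPM in dark S-high barcodes, without overlap (log2 -0.82, SE 0.12, edgeR adjusted p = 5.65e-10). Only 82 and 55 dark zone barcodes were S-high. Within low-cycling barcodes, 4 of 11 members were lower and 0 higher (edgeR, 4.81% and 6.47% of genes), with 0 higher at an unadjusted p under 0.05. The 4 were Hist1h2ac, Hist1h2bc, Hist1h1c and Hist1h1e. Dark zone barcodes that were low-cycling numbered only 103 and 52, with median depths of 4864 and 4997.5 UMIs. Summed H1, H2A, H2B and H3 were lower in the light zone there in both libraries. The log2 ratio of light to dark for summed H4 was 0.51 in library 1 and -0.36 in library 2.

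Within G2/M-high barcodes no member was lower in the light zone by edgeR (2.73% of genes), nor at an unadjusted p under 0.05, and DESeq2 was not run there. Hist1h4d was higher (log2 0.55, SE 0.15, edgeR adjusted p = 0.00871), 1 of 44 members where 4.9% of genes were higher. Hist1h1b gave 391 and 369 CPM in light and 346 and 316 CPM in dark G2/M-high barcodes. Summed over members, the log2 ratio of light to dark was -0.56 ± 0.14 (SD, n = 2) among S-high barcodes, 0.11 ± 0.12 among G2/M-high barcodes and -0.82 ± 0.20 among low-cycling barcodes. The G2/M list differed between the gates inside these classes too. Its log2 ratio was -0.24 ± 0.07 among S-high, -0.10 ± 0.02 among G2/M-high and -0.68 ± 0.19 among low-cycling barcodes. The part of this in the histone ratios was not tested.

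The difference between these zone effects was tested for each gene. Between S-high and G2/M-high barcodes, a test added after seeing the data, it passed for 2 of 45 members, Hist1h1b and Hist1h2ap, where 0.0878% of genes passed. The Hist1h1b difference was a log2 of -1.02 (SE 0.14, edgeR adjusted p = 8.09e-07), and without the library as a block neither gene passed. Between S-high and low-cycling barcodes it passed for 0 of 33 members in edgeR (0.0573% of genes). At an unadjusted p under 0.05 it passed for 4, of which 3 were higher and 1 lower. The share of all genes at that cutoff is not given here. The lowest edgeR adjusted p was 0.316, for Hist1h2ac. DESeq2 was not run for these tests.

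**Figure D5:**
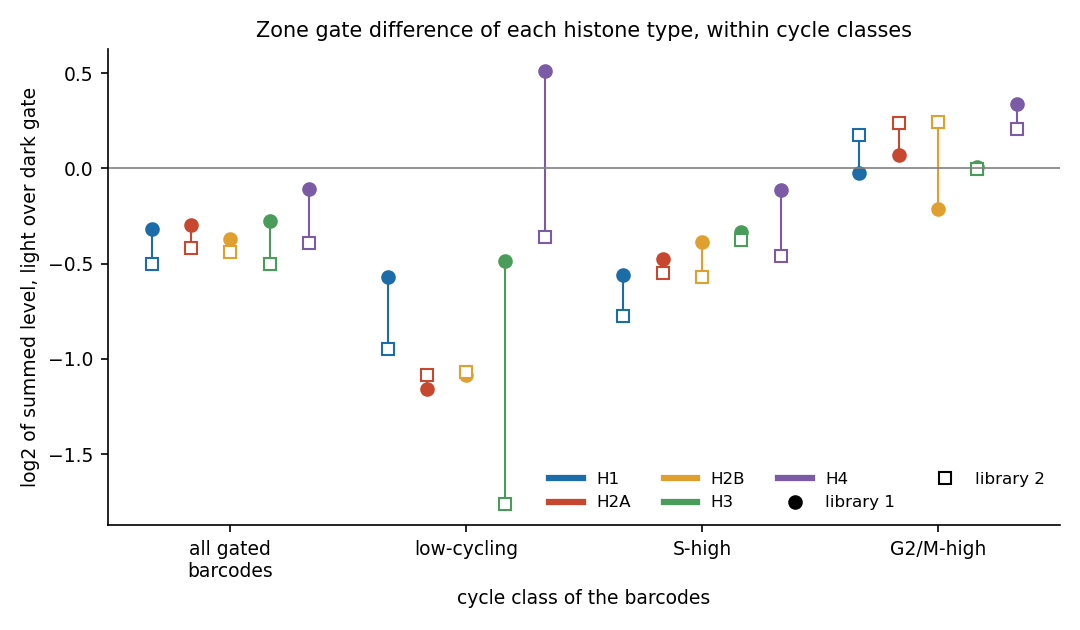
Light over dark zone ratio of summed histone mRNA, by type and cycle class, for library 1 and library 2. Among S-high barcodes the ratio of every type lies below no difference in both libraries. Among G2/M-high barcodes the ratios lie near or above it, except for H2B in library 1 (log2 -0.21, against 0.24 in library 2).

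Of the genes in the 3 histone pathway lists, more fell than rose in the light zone: 7 of 17 mRNA factors fell and 3 rose, 8 of 22 chaperones fell and 2 rose, and 5 of 10 variants fell and 1 rose. Of all genes 16% fell and 18.1% rose. Pou2f1, whose protein Oct-1 binds the octamer, fell by 0.59 on the log2 scale and Cpsf2, a subunit of the cleavage complex, by 0.52. Lsm10, a U7 snRNP protein, rose by a log2 of 0.40. The chaperone genes Anp32e and Hjurp each fell by 0.39 on the log2 scale. H1fx, a replication-independent linker histone, changed by a log2 of -0.83 and Cenpa, the centromeric H3, by -0.46. Anp32e, Hjurp and Cenpa belong to the lists that define the cycle classes, and G2/M-high barcodes were rarer in the light zone. The part of the cycle in these values was not tested.

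IgG and IgM barcodes held nearly the same amount of histone mRNA, and 1 histone gene passed the test. Barcodes with at least 5 heavy chain UMIs were called IgG, 2192 and 1437, or IgM, 1775 and 1323, where at least 80% of those UMIs were Ighg1, Ighg2b, Ighg2c or Ighg3, or Ighm or Ighd. Histone mRNA summed to 2148 and 1387 CPM in IgG and 1980 and 1372 CPM in IgM barcodes, a mean log2 difference of 0.07 ± 0.07 (SD, n = 2). Hist1h2ac gave 80.7 and 61.4 CPM in IgG and 59.3 and 52.6 CPM in IgM barcodes (log2 0.33, SE 0.05, edgeR adjusted p = 8.37e-08), with no overlap. It was the 1 member of 62 called higher, where 5.84% of genes were. That count moved with the settings: edgeR called 16 of 62 with a mitochondrial limit of 40% (11.9% of genes), 9 with at least 20 heavy chain UMIs (6.25%), 5 of 61 without the 6% deepest barcodes (6.77%) and 4 with library size only (8.55%). It called 0 with a mitochondrial limit of 10% (5.92% of genes) or without the replicate block, so the Hist1h2ac call is lost there. The 7 resting B cell markers, none of them a heavy chain gene, summed to 333 and 332 CPM in IgG and 561 and 597 CPM in IgM barcodes, and its part in these values was not tested.

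None of the 62 was lower in IgG barcodes (edgeR, 8.16% of genes), at an unadjusted p under 0.05 or by DESeq2. By edgeR 5 were higher at an unadjusted p under 0.05, a cutoff at which the share of all genes is not given here. DESeq2 called 0 higher and 0 lower, where it called 0.647% and 1.65% of genes. The median log2 fold change was 0.07, against 0.01 for all genes. Hist1h1b gave 387 and 358 CPM in IgG and 345 and 357 CPM in IgM barcodes, a log2 difference of 0.07 (edgeR adjusted p = 0.226). Hist1h2ap, at 377 and 101.3 against 362 and 104 CPM, differed by less than the spread between libraries. Of 17 mRNA factors 4 rose and 0 fell, with Pou2f1 at a log2 of 0.22, Hinfp at 0.21 and Sympk at 0.20. Of 22 chaperones 3 rose and 0 fell, and of 10 variants 2 rose and 2 fell, among them H3f3a (-0.24) and H1f0 (0.23).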

How the data were processed

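Gene expression was measured as UMI counts in 2 single-cell libraries. The deposited counts were made with Cell Ranger 3.0.2 per the file headers and with mm10 per the submitters' processing notes, and are raw counts per gene and barcode. No doublet caller was run, and the alternative without the 6% deepest barcodes bears on doublets. Barcodes were filtered, thinned to 3400 UMIs and classed in Python 3.11.15, and counts were summed per class and library. Sums were tested with edgeR 4.0.16 (quasi-likelihood, TMM, filterByExpr, Benjamini-Hochberg) with the library as a block, since both classes come from the same libraries, which leaves 1 residual degree of freedom per gene. DESeq2 1.42.0, other filters, normalizations and gates were alternatives. Alternatives that changed which barcodes were used drew the percentile cuts of the cycle classes anew. On simulated counts of 10724 genes, edgeR recovered 95% of genes changed 2-fold in the zone comparison and 63% of those changed 1.5-fold. For S-high against low-cycling barcodes the shares were 91% and 49%. The simulation changed only 100 genes at each fold, drawn from genes above a count threshold. Its spread was set and not taken from the data, so it does not cover rarer genes or the real spread.

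The members and lists were chosen with earlier results of these data known. Named genes were the 3 most abundant members of each type, up to 4 called members with the largest change in each direction, up to 3 called genes of each list, the members near the UMI threshold and the 10 genes most correlated with the summed members. Hist1h1b, Hist1h2ap, Hist1h1e, Hist1h2ac and Hist1h4i were followed through the comparisons. The list of 7 resting B cell markers was trimmed after seeing the data. A class of barcodes that was added after seeing the data is not reported here.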

Additional observations from a re-analysis of the deposited data

Results flagged for a closer look

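The zone difference of Hist1h1b was lower among S-high than among G2/M-high barcodes by a log2 of -1.02 (SE 0.14, edgeR adjusted p = 8.09e-07), and that of Hist1h2ap by -0.78 (SE 0.16, edgeR adjusted p = 0.011). Both were marked because the difference between the classes itself passed a test that was added after seeing the data. Of the 45 members tested, 13 were lower at an unadjusted p under 0.05 and 0 were higher. The share of all genes at that cutoff is not given here, so the 13 cannot be read as a trait of the members. After adjustment 2 of the 45 passed, and without the library as a block 0 did. The gates also differed in the G2/M list inside these classes, and its part in these values was not tested.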

How the results depend on the processing

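The library comparison has no test, and the cycle, zone and isotype tests have 1 residual degree of freedom, which limits small changes. Without the replicate block, members lower in the light zone numbered 2 (with it 25), members higher in IgG barcodes 0, members higher and lower in G2/M-high barcodes 28 and 0, and called zone differences between S-high and G2/M-high barcodes 0. The block is the library, which both classes share. By DESeq2, 8 were lower in the light zone, 0 higher in IgG, 0 lower in S-high, and 30 higher and 0 lower in G2/M-high barcodes, and the Hist1h2ap log2 change in IgG was -0.0043. With sums of thinned UMIs, which hold fewer UMIs, 10 were lower in the light zone. There 2 of 53 were higher in IgG (3.04% of genes), 21 higher in S-high and 0 lower in G2/M-high barcodes. Apart from that IgG share, the share of all genes called is not given here for thinned sums or without the block. Whether the members lost calls more than all genes did was therefore not tested.

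With a mitochondrial limit of 10%, 0 of 56 were higher in IgG (5.92% of genes) and 0 lower in S-high barcodes. In G2/M-high barcodes 28 were higher and 3 lower, with Hist1h1b at -0.14 and Hist1h4i at -0.11. With a limit of 40%, 16 were higher in IgG (11.9% of genes) and 0 lower in G2/M-high barcodes. Members higher in IgG numbered 4 with library size only (8.55% of genes) and 5 of 61 without the 6% deepest barcodes (6.77%). They numbered 2 without barcodes with other-lineage markers (6.09%) and 9 with at least 20 heavy chain UMIs (6.25%). No member was lower in G2/M-high barcodes without the 6% deepest barcodes or with scanpy phases (0 each). The shares of all genes called in the cycle comparisons under these settings are not given here, and the cause of these shifts was not tested.

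Members lower in the light zone numbered 6 within S-high barcodes (Hist1h3c at 0.0353) and 4 within low-cycling barcodes (Hist1h4i at 0.98). Within G2/M-high barcodes 0 were lower and 1 higher, with a median log2 change of 0.0333, Hist1h1b at 0.20, Hist1h2ap at 0.18, Hist1h1e at 0.0222, Hist1h2ae at 0.0783, Hist1h4i at 0.27, Hist1h3e at 0.0036 and Hist1h3c at 0.0445. Members higher in IgG numbered 0 within S-high and 0 within low-cycling barcodes, where the median was -0.18, Hist1h1b -0.13 and Hist1h2ap -0.18. The share of all genes called in IgG within those classes is not given here. Leaving out a library in turn leaves no test, and the median ran from -0.41 to -0.30 for the zones, -0.0254 to 0.0771 for IgG, 2.01 to 2.21 for S-high and 0.94 to 1.09 for G2/M-high barcodes.

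Between libraries, 18 members were past 2-fold higher, and members past 1.5-fold lower numbered 2 within S-high and 4 within low-cycling barcodes, where only 15 of 62 members had at least 50 UMIs and 0 of those were lower. These library settings were chosen after seeing the data. The share of barcodes with a histone UMI was 91.8% and 89.9% without thinning, and 61.7% and 55.2% had at least 2 UMIs.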

Other observations

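Neighbouring H2A and H2B genes that are read away from each other often held unequal amounts of mRNA. Of 10 such pairs with starts within 1000 bases, looked at after their values were seen, 7 differed more than 2-fold in UMIs. Hist1h2ap and Hist1h2br start 236 bases apart and had 25180 and 481 UMIs over both libraries. Hist1h2ae and Hist1h2bg, 176 bases apart, had 11416 and 751 UMIs. In the pair of Hist1h2ag and Hist1h2bj, 270 bases apart, the H2B gene was the higher, with 3438 against 319 UMIs. Other pairs lay close to level: Hist1h2bl and Hist1h2ai, 279 bases apart, had 247 and 268 UMIs, and Hist1h2ak and Hist1h2bn, 296 bases apart, had 977 and 746 UMIs. Near-identical copies limit how tags of Hist1h2ap were assigned, and its part in these values was not tested.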
